A study of Rattus norvegicus with 85 samples.

Results

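This comparison asked whether stress given to adolescent female rats before they were mated was followed by different A-to-I RNA editing levels in prefrontal cortex (PFC) of their newborn pups. The samples were chosen by their labels as PFC, postnatal day 0, first generation (F1). There were 11 such samples among 85 in the series, 5 from pups of control females (O1-C) and 6 from pups of females that had gone through pre-reproductive stress (O1-PRS), an unpredictable stress procedure. The pups were Sprague-Dawley rats and were themselves not stressed. O1-C held 1 female and 4 males, and O1-PRS held 3 females and 3 males. The labels name no dam, so pups of the same litter could not be recognised, and p-values measure the spread between these samples only.

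In A-to-I editing, ADAR enzymes deaminate adenosines in double-stranded stretches of RNA to inosine, which the ribosome and the sequencer both read as guanosine. Editing in a coding exon can therefore change an amino acid. Htr2c, the serotonin 2C receptor, is the best known target in the brain, where closely spaced edited adenosines lie in the stretch that encodes the second intracellular loop. Receptors made from fully edited transcripts couple less well to their G protein than those made from unedited transcripts. Adar and Adarb1 encode the enzymes, and Adarb1 transcripts are themselves edited.

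Editing was measured by mmPCR-seq, in which many short cDNA targets are amplified together in microfluidic chambers and sequenced deeply. The editing level is the percent of reads with G at the edited position. Of the 146 sites in the study's list, all 146 reached the minimum of 50 reads in 3 or more O1-C and 3 or more O1-PRS samples and were tested. Reads summed over these sites ranged from 683558 to 2684327 per sample in O1-C and from 149278 to 2545906 in O1-PRS. The shallowest sample, O1-PRS 36, had 15.8% of the sites under 50 reads, and in the other 10 samples this share was at most 2.05%. Samples are named here by group and label number. No pair of samples in a group agreed within counting noise, the lowest chi-square of 25 pairs being 4.80 per site. That pair, O1-PRS 36 and 37, also had the fewest reads, and this chi-square grows with depth.

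The 4 coding sites of Htr2c carried the largest differences. They lie on the minus strand of chromosome X (rn4 build), within 12 bases of each other. Site A is at position 31041849 and changes Ile to Val, site B is at 31041847 and changes Ile to Met, site C is at 31041842 and changes Asn to Ser, and site D is at 31041837 and changes Ile to Val. A single primer pair read all 4 sites, so their levels in a sample come from the same amplified molecules. The gene-specific part of these primers is shown with those of the other targets whose levels are described most fully, since each pair defines which transcript stretch a level refers to. Sequences run 5′ to 3′ and come from the study's primer list, with the common tails removed.
Htr2c forward: cttagtccgcgaattgaacc
Htr2c reverse: ggggattatgtctggccttta
Mad2l1 forward: ctgaagaaacggtgcacaaat
Mad2l1 reverse: aggggaactaacagattcattgt
Gtf3c2 forward: agggagacctgctactattga
Gtf3c2 reverse: aggctgagttgggaggat
Adarb1 forward: gcctcagatttgagccaaaa
Adarb1 reverse: ctgtggtgcccagaaaga

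At Htr2c site A the editing level was lower in O1-PRS pups. It was 34.7%, 84.0%, 80.3%, 64.6% and 54.5% in O1-C 43, 69, 71, 66 and 68. In O1-PRS 39, 36, 37, 64, 70 and 67 it was 4.9%, 17.2%, 18.6%, 52.0%, 10.2% and 64.1%. Thus 4 of the 6 O1-PRS samples lay below the lowest O1-C sample, while samples 64 and 67 lay inside the O1-C range. The means were 63.6% ± 20.1 (SD, n = 5) and 27.8% ± 24.2 (SD, n = 6), or -35.8 percentage points in O1-PRS relative to O1-C (exact two-sided Mann-Whitney test, p = 0.0303, adjusted p over all 146 sites = 0.632).

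Site B followed the same order of samples almost exactly. The O1-C samples, in the order above, were at 29.7%, 83.8%, 70.4%, 59.1% and 41.2%. The O1-PRS samples were at 0.2%, 17.0%, 12.7%, 36.0%, 9.2% and 53.5%, and 4 of the 6 again lay below every O1-C sample. The means were 56.8% ± 21.8 and 21.4% ± 19.7, or -35.4 percentage points relative to O1-C (exact test, p = 0.0303, adjusted p = 0.632). In O1-PRS 39, site B was close to unedited at a depth of 5850 reads.

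Sites C and D had lower means in O1-PRS, but the groups overlapped widely. Site C was at 10.2%, 26.8%, 32.7%, 24.4% and 34.4% in O1-C and at 1.4%, 6.5%, 11.0%, 41.9%, 5.7% and 33.2% in O1-PRS, with means of 25.7% ± 9.59 and 16.6% ± 16.7. Site D was at 18.9%, 21.9%, 52.4%, 48.4% and 69.0% in O1-C and at 0.2%, 21.0%, 11.7%, 69.8%, 7.0% and 60.6% in O1-PRS, with means of 42.1% ± 21.3 and 28.4% ± 29.5. At both sites 3 of the 6 O1-PRS samples were below every O1-C sample and 1, sample 64, was above every O1-C sample. The differences of -9.08 and -13.7 percentage points did not pass the test (exact Mann-Whitney p = 0.429 at each).

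**Figure D1:**
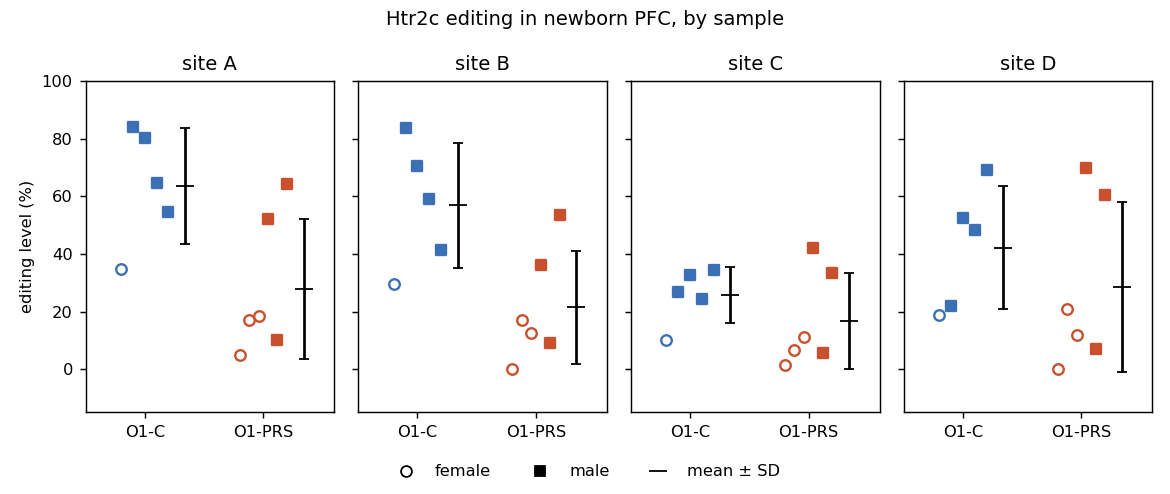
Editing level in percent at Htr2c sites A, B, C and D, 1 point per sample, open circles for females and filled squares for males, with the mean and SD of each group beside the points. At sites A and B, 4 of the 6 O1-PRS samples lie below all 5 O1-C samples, and all 4 females lie below all 4 O1-C males.

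Counting error was small beside this spread. The fewest reads at an Htr2c coding site were 334, at site D of O1-PRS 36, where the level of 21.0% had a 95% Wilson interval of 16.9% to 25.6%. At site A of the same sample the interval was 13.5% to 21.5%. These intervals cover counting error only, since PCR copies of the same molecule were not marked. All 4 sites stood out for their spread: of 118 sites with 50 reads in every sample, Htr2c A, B, D and C had the 4 largest SDs over the 11 samples, 28.4, 26.9, 25.8 and 14.1 percentage points. These SDs include the difference between groups. Within O1-PRS the same 4 sites had the largest SDs, and within O1-C sites A, B and D did, while site C ranked 6.

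Sex and group were unevenly mixed, and all 4 female libraries carry numbers from 15 to 46 while the 7 male libraries carry numbers from 196 to 235, so sex and library range cannot be told apart. Female samples were low at Htr2c: site A was at 34.7% in the O1-C female and averaged 13.6% in the 3 O1-PRS females. Among males it averaged 70.9% ± 13.8 in 4 O1-C samples and 42.1% ± 28.3 in 3 O1-PRS samples, a difference of -28.8 percentage points. Site B in males averaged 63.6% ± 18.0 and 32.9% ± 22.3. For each site the exact test in males gave p = 0.114, where the smallest p that untied values allow is 0.0571. With labels permuted within sex only, the weighted differences were -26.4 points at site A and -27.4 points at site B (exact p = 0.0286 for each, adjusted p = 0.596). The same permutation gave -3.02 points at site C and -3.89 points at site D, both with exact p = 1.

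A tissue punch holds many cell types, so fewer cells with edited transcripts and less editing in each cell cannot be told apart. The choroid plexus, which makes the fluid of the ventricles, is known for abundant and little edited Htr2c. The reads at sites A to D, as a share of all reads over the 146 sites, were 1.87% ± 0.321 in O1-C and 1.74% ± 0.544 in O1-PRS (exact Mann-Whitney p = 0.792). The O1-PRS range was 0.910% to 2.40%, around an O1-C range of 1.47% to 2.21%. Igf2, also abundant in choroid plexus, took 0.430% to 0.682% of the reads in O1-C and 0.522% to 0.80% in O1-PRS (p = 1, exact). The microglial genes Mpeg1 and Entpd1 together took 0.989% to 1.43% and 1.11% to 1.5% (exact p = 0.247), and 9 neuronal transcripts took 12.0% to 17.5% and 12.6% to 17.4% (exact p = 0.792). Reads of a PCR target are only a rough measure of a transcript, so the part of cell mix in the Htr2c result was not tested here.

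Across all 146 sites, none passed the adjusted threshold (FDR = 0.1), which is 0% of those tested, and the smallest adjusted p was 0.632. An unadjusted p under 0.05 was reached by 10 sites, or 6.85%. Of these, 9 sites (6.16%) were lower in O1-PRS and 1 was higher. The limma test on log2 odds of editing also passed 0 sites after adjustment and 10 at an unadjusted p under 0.05, of which 6 were among the 10 of the Mann-Whitney test. Over the whole set, 74 sites were higher and 70 lower in O1-PRS, with a median difference of 0.00333 percentage points. This balance turned on a single library, O1-PRS 64: without it 44 sites were higher and 98 lower, with a median difference of -0.12 points, and all 14 sites with an unadjusted p under 0.05 were lower.

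**Figure D2:**
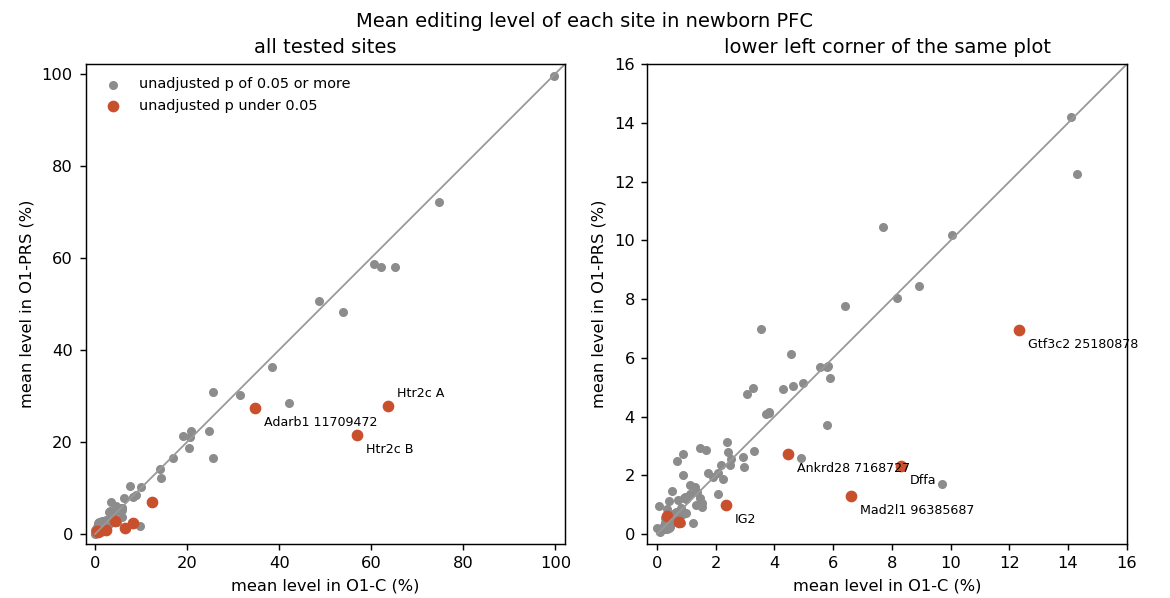
Mean editing level in percent of each tested site in O1-C (x) and O1-PRS (y), with the line of equal levels, shown in full on the left and up to 16% on the right. Most sites lie near the line, and the sites with an unadjusted p under 0.05 lie below it except Azin1, near the origin.

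Mad2l1, which encodes a protein of the spindle checkpoint, held the 1 site (0.685% of those tested) at which the groups did not overlap. The site is in the 3′ UTR on the plus strand of chromosome 4 at position 96385687. Its level was 4.2%, 4.8%, 9.7%, 7.2% and 7.1% in O1-C, and 1.0%, 0.4%, 0.1%, 0.1%, 2.6% and 3.5% in O1-PRS. All 6 O1-PRS samples were below the lowest O1-C sample. The means were 6.60% ± 2.19 and 1.28% ± 1.44 (exact Mann-Whitney p = 0.00433, the smallest that 5 against 6 samples allow, adjusted p = 0.632). The other Mad2l1 site in the list, at 96385781, was at 4.96% ± 2.02 and 5.13% ± 2.27 (p = 0.972, exact).

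Gtf3c2, a subunit of a transcription factor for RNA polymerase III, has a nonsynonymous site on chromosome 6 at position 25180878. It was at 10.4%, 14.1%, 13.6%, 11.7% and 11.8% in O1-C and at 0.1%, 7.3%, 7.1%, 11.0%, 11.0% and 5.3% in O1-PRS. Here 4 of the 6 O1-PRS samples were below every O1-C sample, and the means were 12.3% and 6.97% (exact p = 0.0152, adjusted p = 0.632). O1-C 43, the lowest O1-C sample, was read 289 times at this site.

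Dffa encodes the inhibitor of a nuclease that cuts DNA during apoptosis, and its edited site is annotated as intronic (chromosome 5, position 166189792). Levels were 3.9%, 6.4%, 11.2%, 8.9% and 11.2% in O1-C and 0.2%, 8.7%, 0.1%, 0.2%, 3.0% and 1.7% in O1-PRS. All O1-PRS samples except number 36 were below the O1-C range, and the means were 8.32% and 2.32% (exact p = 0.0173, adjusted p = 0.632).

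The sites in Adarb1, which encodes the enzyme ADAR2, are annotated as 5′ UTR in the files. Of the 4, 3 had lower means in O1-PRS and 1 had an unadjusted p under 0.05, against 6.85% of all sites. That site, at position 11709472 of chromosome 20, was at 33.9%, 32.5%, 27.0%, 42.4% and 37.7% in O1-C and at 30.5%, 24.1%, 29.7%, 28.1%, 26.4% and 25.4% in O1-PRS. O1-PRS values lay close together, from 24.1% to 30.5%, and 3 of the 6 were below the O1-C range (means 34.7% ± 5.77 and 27.4% ± 2.50, exact p = 0.0303). The most edited site, 11709486, averaged 65.1% ± 4.54 and 58.0% ± 8.80 (exact p = 0.175), and in males alone the means were 64.9% and 64.7%. The remaining Adarb1 sites averaged 14.3% and 12.3% at 11709485, and 2.40% and 3.13% at 11709490, and neither passed the test.

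Ankrd28, which encodes a regulatory partner of protein phosphatase 6, has 20 listed sites on chromosome 16, of which 11 were higher and 9 lower in O1-PRS, with a median difference of 0.0750 percentage points. The higher means came from O1-PRS 64, at 21.7% against 3.4% to 6.3% in the other O1-PRS samples at 7168464, for example. Without that library no Ankrd28 site was higher, 19 were lower and the median difference was -0.36 points. An unadjusted p under 0.05 was reached by 2 of the 20 sites, against 6.85% of all sites, and both were lower and weakly edited. At 7169158 the means were 0.760% ± 0.114 and 0.417% ± 0.160 (exact p = 0.0130), and 4 of 6 O1-PRS samples were below the O1-C range. At 7168727 the means were 4.46% and 2.74% over 5 O1-PRS samples (exact p = 0.0397), and the mean drew on a single sample near 0, O1-PRS 64 at 0.1%. O1-PRS 36 had 1 read there and was not used. The intergenic site named IG2 averaged 2.36% and 1.00% (exact p = 0.0498), with 4 of the 6 O1-PRS samples below the O1-C range. With levels not rounded to 3 decimals the exact p was 0.0519 at IG2 and 0.0556 at Ankrd28 7168727.

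Azin1, an inhibitor of the antizymes that restrain polyamine synthesis, was the 1 site higher in O1-PRS among the 10 with an unadjusted p under 0.05. It rested on very low levels, 0.2% to 0.4% in O1-C and 0.4% to 1.1% in O1-PRS, with means of 0.36% and 0.60% (exact p = 0.0455). With levels not rounded to 3 decimals the exact p was 0.177.

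**Figure D3:**
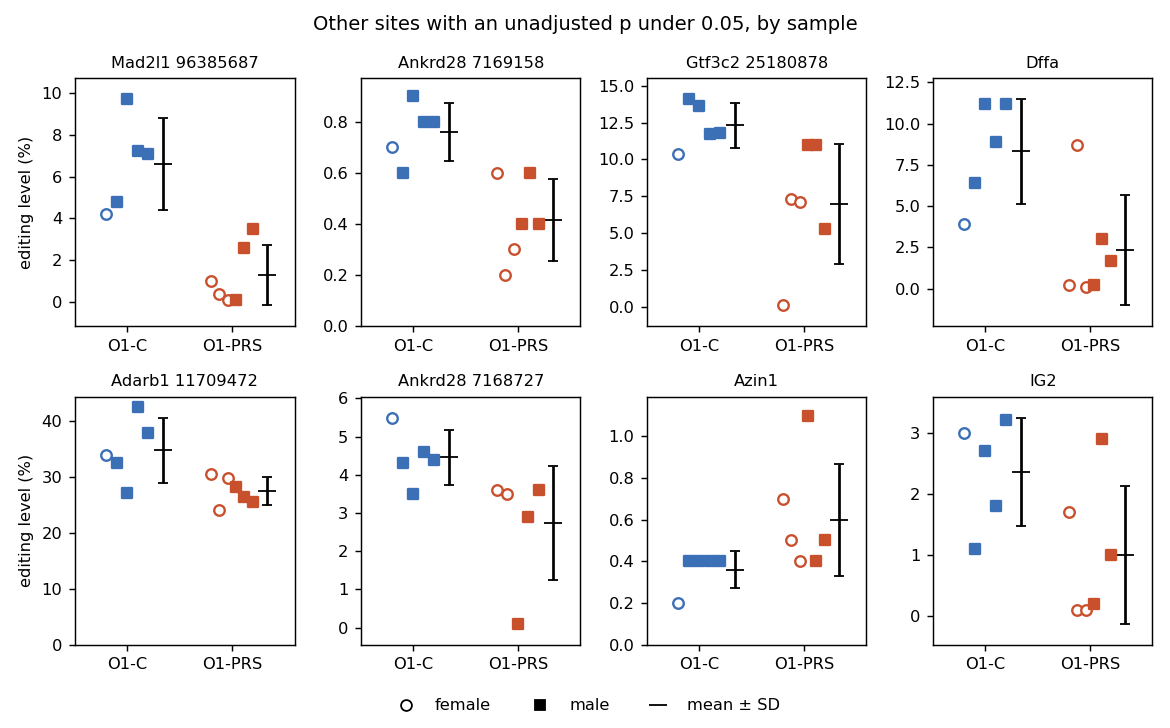
Editing level in percent of the other sites with an unadjusted p under 0.05, 1 point per sample with at least 50 reads, open circles for females and filled squares for males, with the mean and SD of each group. The groups separate fully at Mad2l1, where O1-C runs from 4.2% to 9.7% and O1-PRS from 0.1% to 3.5%.

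The subunits of glutamate receptors, the main excitatory receptors of the brain, are edited at sites that set calcium entry, desensitisation and assembly. None of their 17 tested sites had an unadjusted p under 0.05, against 6.85% of all sites. These 17 also include synonymous sites, and 11 of them reached a mean level of 1% in either group. Means were higher at 6 and lower at 11, with a median difference of -0.20 percentage points. The Gria2 Q/R site, which makes AMPA receptors impermeable to calcium, was edited almost completely, at 99.6% ± 0.179 in O1-C and 99.6% ± 0.163 in O1-PRS. The R/G sites, which speed recovery from desensitisation, averaged 38.4% and 36.3% in Gria2, 60.6% and 58.6% in Gria3, and 20.8% and 22.5% in Gria4.

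The kainate receptor subunits had lower means at 6 of 7 sites, synonymous sites included. The largest difference was at the I/V site of Grik2, with levels of 46.7% to 62.0% in O1-C and 43.6% to 52.5% in O1-PRS, and means of 53.9% ± 5.53 and 48.2% ± 4.04 (exact p = 0.126). The neighbouring Y/C site averaged 62.2% and 58.0%, and the Q/R site in the channel pore averaged 74.6% and 72.2% (exact p = 0.429 for each). Grik1 varied more, from 15.6% to 44.2% over the 11 samples, with means of 31.5% ± 9.74 and 30.2% ± 11.7.

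Other recoded channels differed little. Of 6 sites in Cacna1d, Kcna1, Kcnma1 and Gabra3, the means of all 6 were higher in O1-PRS, by 0.00333 to 2.24 percentage points, and none had an unadjusted p under 0.05, against 74 of 146 sites higher and 6.85% under 0.05 in the whole set. Without O1-PRS 64, 4 of the 6 were higher. The Gabra3 site, in a GABA receptor subunit, averaged 48.7% ± 5.77 and 50.6% ± 3.81, and the Kcna1 site, in a potassium channel, averaged 2.08% in each group. The Flna site, in a protein that crosslinks actin, averaged 5.84% in O1-C and 5.73% in O1-PRS. In Son, which encodes a splicing cofactor, 6 of 8 sites were lower and none reached a mean level of 1% in either group.

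In the study's list of 29 learning- and stress-related sites, 19 were lower and 10 higher in O1-PRS, with a median difference of -0.490 percentage points against 0.00333 over all sites. The listed sites were more edited, with a median level in O1-C of 20.6% against 1.13% over all sites, so the 2 medians are not on a like scale. Only Htr2c A and B among them had an unadjusted p under 0.05, 2 of 29 against 6.85% of all sites. By place in the gene, 27 of 41 nonsynonymous sites were lower in O1-PRS and 14 were higher, while 28 of 74 sites in 3′ UTRs were lower and 44 higher. The median differences of these classes were -0.107 and 0.0608 percentage points, at median levels in O1-C of 9.72% and 0.823%. Without O1-PRS 64, 52 sites in 3′ UTRs were lower and 18 higher.

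Some sites varied widely between samples without passing the test between groups. Igf1, an insulin-like growth factor edited in its 3′ UTR, ranged from 13.0% to 40.7% in O1-C and from 8.2% to 46.7% in O1-PRS, with means of 25.6% and 30.8% (exact p = 0.662). At Blcap 148267329, a Lys to Arg site, O1-C 43 was at 43.1% with 255 reads, while the other samples with enough reads lay between 0.4% and 3.0%. This sample set the difference in means of -8.0 percentage points, and without it the difference was 0.345 points.

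Mean editing over the 118 sites read at least 50 times in every sample was 9.36% ± 0.957 in O1-C and 8.31% ± 1.53 in O1-PRS, a difference of -1.05 percentage points (exact permutation test of the means, p = 0.206). The O1-C samples ranged from 7.89% to 10.3% and the O1-PRS samples from 6.86% to 11.0%, and the highest of all was O1-PRS 64. Without this sample the difference was -1.55 points (exact permutation p = 0.0317). With the sites of Htr2c left out, the difference over 113 sites was -0.268 points (exact permutation p = 0.608). Over all 118 sites, Htr2c included, permuting labels within sex gave -0.485 points (exact p = 0.479).

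Across the 11 samples, Htr2c A varied together with the coding sites B, C and D. The listed sites in the 3′ UTR of Htr2c were not among the relations examined. The site named 3UTR-1 averaged 7.70% in O1-C and 10.5% in 5 O1-PRS samples (exact Mann-Whitney p = 0.690). The site named 3UTR-2 averaged 0.52% in O1-C and 0.583% in O1-PRS. In a family of 5 relations, A and B had a Pearson r of 0.983 and a Spearman rho of 0.991 (permutation p = 1e-05 for each, the smallest that 100000 resamples can give, adjusted p = 5e-05). The relation was close without the 2 samples farthest from the median of A, O1-PRS 39 and 70 (r = 0.974), in the 7 males (r = 0.970) and in the 6 O1-PRS samples (r = 0.984). For A and C, r was 0.826 (permutation p = 0.00392, adjusted p = 0.00980) and rho was 0.700 (permutation p = 0.0203, adjusted p = 0.0338). Without the same 2 samples r was 0.718, among males it was 0.617 (exact permutation p = 0.165), and among O1-PRS samples it was 0.944 (exact permutation p = 0.0264). For A and D, r was 0.677 (permutation p = 0.0266, adjusted p = 0.0359) and rho 0.664 (permutation p = 0.0305, adjusted p = 0.0381). Without those 2 samples r was 0.480 (exact permutation p = 0.188), so the p under 0.05 depends on them. In males r was 0.358 (exact permutation p = 0.443), and in O1-PRS samples it was 0.960 (exact permutation p = 0.0181). O1-C 69 shows the split most clearly, with 84.0% at A and 21.9% at D.

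Htr2c A also rose with the mean level of the 113 other sites (r = 0.647, permutation p = 0.0287, adjusted p = 0.0359, rho = 0.773, permutation p = 0.00819, adjusted p = 0.0205). Without the 2 farthest samples r was 0.556 (exact permutation p = 0.118), and in males it was 0.333 (exact permutation p = 0.441). In O1-PRS samples r was 0.659 (exact permutation p = 0.128). The p under 0.05 therefore depends on which samples are included, and each of these subsets is smaller. With the share of reads at Htr2c A to D, r was 0.223 (permutation p = 0.511, adjusted p = 0.511) and rho was 0.0727 (permutation p = 0.838, adjusted p = 0.838). Without those 2 samples that r was 0.696 (exact permutation p = 0.0377), and among males it was -0.439 (exact permutation p = 0.350).

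**Figure D4:**
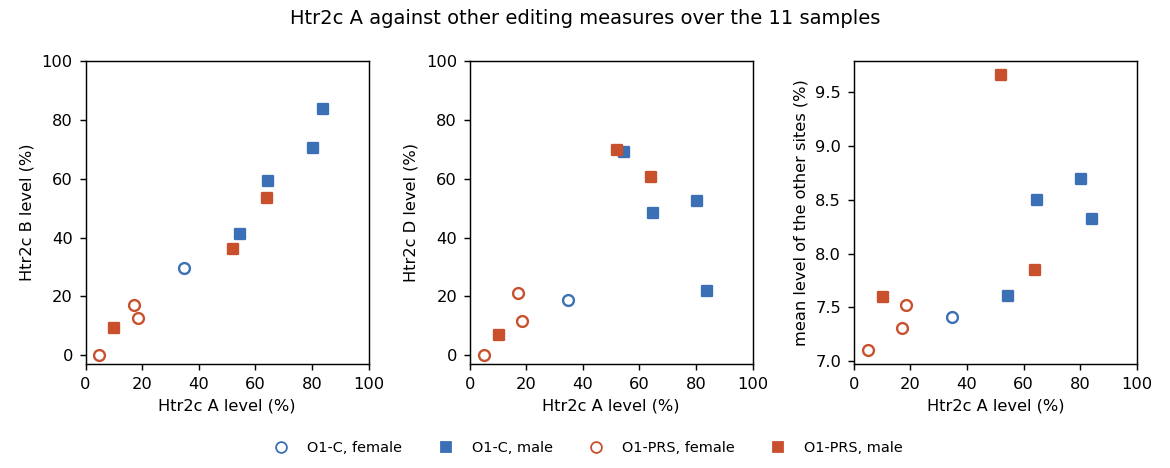
Htr2c A level in percent (x) against the Htr2c B level, the Htr2c D level and the mean level of 113 other sites, all in percent, 1 point per sample, coloured by group and shaped by sex. Points follow a single line for B (r = 0.983) and scatter for D, where O1-C 69 has a high A and a low D.

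The difference at sites A and B was then set against the same contrast in other samples, with the difference between effects tested by permuting labels within each comparison. These 15 tests, 5 measures in each of 3 comparisons, share the F1 PFC samples. In PFC of second-generation (F2) newborns, whose fathers were O1-C or O1-PRS males, the contrast ran the other way. Site A averaged 27.6% ± 16.0 in 6 samples of the control line and 61.0% ± 13.6 in 7 samples of the PRS line. In F1 the control line had averaged 63.6% and the PRS line 27.8%, so the control line also differed between F1 and F2. That difference between control lines was not tested. The effects of -35.8 and 33.4 points differed by -69.2 points (permutation p = 0.000396, adjusted p = 0.00297). For site B the effects were -35.4 and 31.4 points and differed by -66.8 points (permutation p = 0.000178, adjusted p = 0.00267). Mean editing over 114 sites differed in the same way, by -2.72 points (permutation p = 0.00619, adjusted p = 0.0310), but its adjusted p was 0.0617 to 0.0772 without O1-C 69, 71 or 66 or without O1-PRS 39, 36, 37 or 70. That mean includes Htr2c A to D and so is not separate from the results at A and B. The F1 and F2 effects were not compared with the Htr2c sites left out. Sites C and D did not pass (adjusted p = 0.158 and 0.154). The F2 control line held 2 females and 4 males and the F2 PRS line 5 females and 2 males.

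In the adult F0 females themselves (postnatal day 60), sites A and B were edited at high levels in both groups. The F1 samples were newborn, of both sexes and not stressed, so generation cannot be told apart from age, sex and direct stress here. Site A averaged 89.1% ± 3.59 in 5 control samples and 93.2% ± 2.71 in 6 PRS samples, an effect of 4.10 points. It differed from the F1 effect by -39.9 points (permutation p = 0.0165), with an adjusted p of 0.0617, under the FDR of 0.1 but not under 0.05. On the log2 odds scale the adjusted p was 0.0237, and with single samples left out it ran from 0.0261 to 0.144. At site B the difference between effects was -33.0 points (permutation p = 0.0479, adjusted p = 0.144).

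In the amygdala (AMY) of F1 newborns, site A averaged 82.0% ± 7.97 in 5 O1-C samples and 74.6% ± 5.92 in 6 O1-PRS samples, and site B averaged 72.0% ± 7.85 and 65.3% ± 4.97. The SDs were well under those of newborn PFC, and the lowest AMY sample at site A, at 65.9%, was above the highest O1-PRS sample in PFC. The effects of -7.43 points at A and -6.74 points at B did not differ from those in PFC by the test (differences of -28.4 and -28.7 points, permutation p = 0.113 and 0.0895, adjusted p = 0.189 and 0.168). The labels do not show whether PFC and AMY samples came from the same pups.

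**Figure D5:**
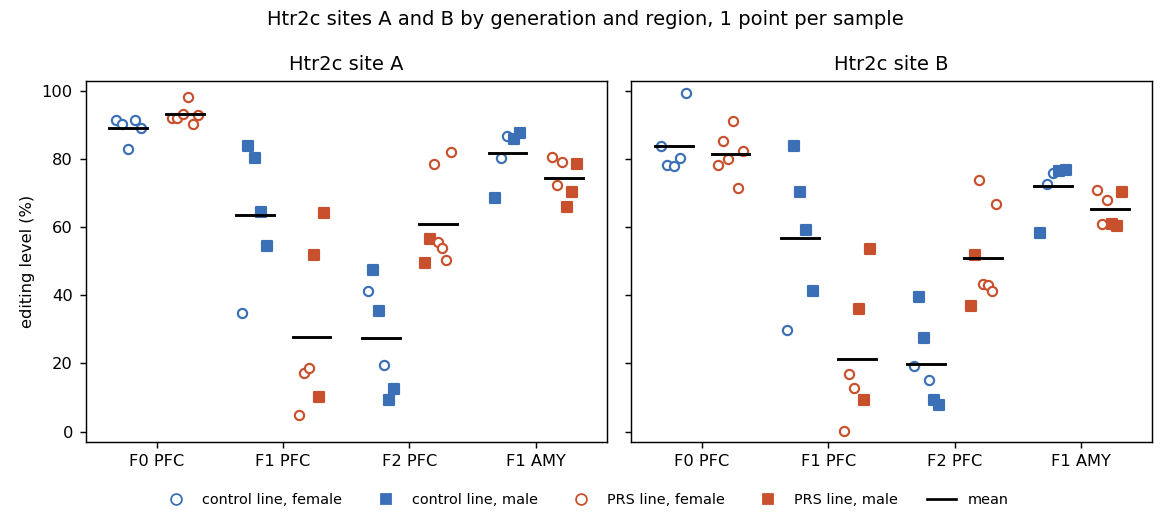
Editing level in percent at Htr2c sites A and B in F0, F1 and F2 PFC and F1 AMY, 1 point per sample, blue for the control line and red for the PRS line, with horizontal bars at the means. Site A means go from 63.6% to 27.8% between the F1 PFC groups and from 27.6% to 61.0% between the F2 PFC groups, while at site A every F0 PFC and F1 AMY sample is at 65.9% or above.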

How the data were processed

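Editing levels came from mmPCR-seq of rat brain. Per the study's methods, the authors mapped combined paired-end reads to the rn4 genome with BWA (also named, with SAMtools, in the submitters' processing notes) and counted, per site, all reads and reads with G. The deposited values are these read counts and the editing level, a fraction that the authors rounded to 3 decimals, printed here as percent. Each file lists 179 sites, of which the 146 in the study's list were used. One of them, in Gtf3c2, was matched at chromosome 6, where the files place it. A level was used at 50 reads or more. The 95% Wilson interval around 50% is 36.6% to 63.4% for a site read 50 times. Where a level is 0, 3 edited reads of 50 set an upper limit of 6%.

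Groups were taken from the labels. The members, lists and tests were chosen with earlier results of these data known. Each site was compared by an exact two-sided Mann-Whitney test over all 462 assignments of 11 samples, with Benjamini-Hochberg adjustment over all 146 sites (FDR = 0.1), after the study's methods, and an unadjusted p under 0.05 for Htr2c sites. Mean editing used an exact permutation test of the means. Samples with over 30% of sites under 50 reads were left out, which removed 1 F2 control sample with 35.6%. The sites named were the Htr2c sites A to D, up to 15 sites with an unadjusted p under 0.05, those without overlap between groups, the 5 next largest differences, set families of sites, and sites with an outlying sample. Alternatives were other tests (means, R's default, limma 3.58.1 on log2 odds of editing with 0.5 reads added, with and without sex, pooled reads), males only or labels permuted within sex, other minimums of reads or level, other sets of sites or adjustment, unrounded levels and leaving out samples. Unrounded levels and leaving out both shallowest O1-PRS samples were added after seeing the data. Scripts used Python 3.11.15, scipy 1.17.1 and R 4.3.3 and were tested on simulated data. F0 and F2 PFC and F1 AMY samples entered only the differences between effects, and the remaining groups were not used here.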

Additional observations from a re-analysis of the deposited data

Results flagged for a closer look

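Within groups of 5 or 6 samples, a single sample stood far from the rest at 5 of the sites described, among 36 groups of samples examined, and chance alone marks about 1 group in 20. At Dffa, O1-PRS 36 was at 8.7% with 473 reads while the other O1-PRS samples lay between 0.1% and 3.0%. At Ankrd28 7168727, O1-PRS 64 was at 0.1% with 2352 reads, against 2.9% to 3.6% in the other O1-PRS samples. At Azin1, O1-C 43 was at 0.2% and the other O1-C samples were all at 0.4%. At Blcap 148267329, O1-C 43 was at 43.1% with 255 reads, against 0.9% to 1.7%. At Adarb1 11709486, O1-C 69 was at 57.2%, against 66.1% to 68.2%.

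The contrast between the PRS and control lines differed between F1 and F2 PFC. Against F2 PFC, the F1 PFC effect differed by -69.2 percentage points at Htr2c A, by -66.8 points at Htr2c B and by -2.72 points in mean editing, a mean that includes the Htr2c sites. Against F0 PFC the F1 PFC effect differed by -39.9 points at Htr2c A and by -33.0 points at Htr2c B, with p-values adjusted over the 15 tests of 0.0617 and 0.144. Only the difference at A was under the FDR of 0.1. For F0, generation cannot be told apart from age, sex and direct stress.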

How the results depend on the processing

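No setting gave a site past the adjusted threshold. The number of sites with an unadjusted p under 0.05 was 10 in the comparison as reported. It was 6 by limma with a sex term, 3 in males only and 6 without both O1-PRS samples with the fewest reads. It ran from 4 (without O1-C 66) to 14 (without O1-PRS 64) when single samples were left out, and was 5 without O1-C 69. None of the 3 sites in males was among the 10. Untied values in males cannot give an exact p under 0.0571, so sites with untied values could not pass there. The difference at Htr2c A missed an unadjusted p of 0.05 in males (-28.8 points), with reads pooled over a group (-36.5) and without both shallow O1-PRS samples (-30.8). At Htr2c B it did so in males (-30.7), without both shallow samples (-32.1) and by limma with a sex term (-2.55 on the log2 odds scale). When single samples were left out, the differences ran from -43.0 to -30.7 at A and from -42.2 to -28.7 at B, and both missed the threshold without O1-C 69, 71 or 66 or without O1-PRS 39, 36, 37 or 70 (exact p of 0.0556 or 0.0667). Fewer samples also raise the smallest p the test allows. The difference in mean editing ran from -1.55 to -0.763, and passed 0.05 only without O1-PRS 64. Blcap 148267329 reversed to 0.358 in males, and ran from -10.2 to 0.345 with single samples left out, reversed without O1-C 43. The difference between the F1 and F0 effects at Htr2c B was -2.57 on the log2 odds scale and missed 0.05 there, and ran from -39.7 to -26.2 points with single samples left out. That in mean editing ran from -1.58 to -0.752 against F0 PFC, and from -0.756 to 0.0593 against F1 AMY, reversed without O1-C 71 or O1-PRS 39. The differences against F2 PFC at A, B and in mean editing kept their direction and an unadjusted p under 0.05 in the settings run for them. These were 13 alternatives, of which 11 left out a single sample. Mad2l1, Ankrd28 7169158 and Dffa kept an unadjusted p under 0.05 in all settings but males only. In males the exact p was 0.0571 at Mad2l1 and Dffa, the smallest that untied values allow, and 0.0857 at Ankrd28 7169158. Among 22 alternatives, males only included, an unadjusted p under 0.05 was lost in 17 at IG2 and 13 at Azin1. It was lost in 12 each at Adarb1 11709472 and Ankrd28 7168727, and in 4 at Gtf3c2. No paired analysis was possible because the groups share no replicate numbers. Depth limits O1-PRS 36 most, and levels under 1% rest on few edited reads there.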
